A study of Drosophila melanogaster with 12 samples.

Results

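Binding of the insulator protein CP190 and of the zinc-finger protein CLAMP was examined at 10 large heat shock genes of Drosophila melanogaster: the 6 Hsp70 copies (Hsp70Aa, Hsp70Ab, Hsp70Ba, Hsp70Bbb, Hsp70Bb and Hsp70Bc), Hsp68, Hsp83, DnaJ-1 and Hsf. They are 10 of 17684 annotated genes on the chromosome arms. A gene counted as called in a library when at least 1 bp of a deposited peak fell in its body or within 2 kb on either side. The cells were Kc167, an embryo-derived line labelled as female, and the labels name no heat shock. Mock cells were nucleofected without RNA, and dsCP190 cells received 12 µg of double-stranded RNA against CP190. All cells were grown for 6 days. Chromatin was precipitated with 5 µg of rabbit antibody against CP190 or against CLAMP, which gave 4 groups of 2 libraries: CP190 mock, CP190 dsCP190, CLAMP mock and CLAMP dsCP190. The series' design text speaks of a CLAMP knockdown, whereas the title and every sample label give CP190 as the target, and the sample labels were followed. The amount of CP190 left in the cells was not measured in the files used here.

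Hsp70 is the main heat-inducible chaperone of the fly, and Hsp68 is a related inducible member of the same family. Hsp83 is the fly Hsp90, which is already abundant in unstressed cells, DnaJ-1 is an Hsp40 co-chaperone that stimulates Hsp70, and Hsf encodes the heat shock factor that activates these genes. Hsp70 promoters carry GA-rich elements that are open before heat shock, and CLAMP binds GA-rich DNA. CP190 does not choose its sites alone but is brought to insulators and promoters by DNA-binding partners. The Hsp70Aa and Hsp70Ab pair at cytological position 87A lies between scs and scs', a pair of elements known as early examples of Drosophila chromatin boundaries, and scs' lies in the interval between CG3281 and aurA.

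The 8 peak lists held between 901 and 7964 peaks on the chromosome arms. The fold enrichment of each peak is the authors' own value, the fragment pileup at the summit over a local background, and it is used below to describe peaks and to rank them within a list. Whole fragment numbers and the local background behind each peak were recovered from the deposited fold enrichment and −log10 p. The background at shared summits gives relative depth. CP190 dsCP190 libraries had between 0.530 and 0.924 of the depth of the mock libraries, and CLAMP dsCP190 libraries between 0.360 and 0.449. Less depth and less binding both shorten a peak list. Their parts in a missing call were not tested except where a detection limit is given. Each limit takes the lowest −log10 p in the list as enough for a call. It is therefore the least fold, and a call may have needed more. The labels do not say whether replicates were separate cultures, so the permutation tests compare only these libraries, and the spread between replicates may be technical. Each test ranks the observed difference among relabelled libraries, and its p-value does not measure that spread.

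In mock cells CLAMP was called at more of the 10 genes than CP190, when each Hsp70 copy was counted. CLAMP was called at 8 of the 10 genes in both mock libraries: Hsp70Aa, Hsp70Ab, Hsp70Ba, Hsp70Bbb, Hsp70Bb, Hsp68, Hsp83 and DnaJ-1. Over all annotated genes the share called in both CLAMP mock libraries was 24.8%, and over protein-coding genes it was 26.2%. CP190 was called at 6 of the 10 in both mock libraries, namely Hsp70Ab, Hsp70Ba, Hsp68, Hsp83, DnaJ-1 and Hsf, against 61.5% of all genes and 67.7% of protein-coding genes. The CP190 count is thus near its background and the CLAMP count is above it. The members were chosen with earlier results of these data known, which limits this reading. The CLAMP calls at Hsp70Aa, Hsp70Ab, Hsp70Bbb and Hsp70Bb lay on low local backgrounds. With CLAMP lists kept to 901 peaks, 1 member was called in both mock libraries, and the share of all genes is not given. Neighbouring copies share peaks: Hsp70Aa and Hsp70Ab owe their call to 1 region between them, and the region at Hsp70Bb also lies in the window of Hsp70Bbb. Both proteins were called in all 4 mock libraries at 5 genes (Hsp70Ab, Hsp70Ba, Hsp68, Hsp83 and DnaJ-1), against 21.2% of all genes. Such a call does not mean a shared site. The CLAMP and CP190 peaks did not overlap at Hsp70Ab (summits at least 5218 bp apart) or Hsp70Ba (at least 2680 bp). With the summit required in the window the count was 4, and with summits nearest to the member itself it was 1. The shares of all genes under these rules are not given here. Each single mock library called CP190 at 62.0% and 63.1% and CLAMP at 28.3% and 29.4% of all genes. Hsp70Bc had no peak in its window in any of the 8 libraries, and the nearest CLAMP peaks, those at Hsp70Bb, ended 3057 and 3050 bp away in mock replicates 1 and 2. Per library, CP190 was called at 6 and 6 members and CLAMP at 8 and 9, a difference of -2.50 genes (6.00 ± 0 against 8.50 ± 0.707, SD, n = 2 each, two-sided exact permutation p = 0.333, the smallest p that 2 against 2 allows). The ranges do not overlap, but the order rested on the Hsp70 copies: without them the difference was 0.500 in the other direction, and with the copies counted as 3 loci it was -0.500 (6.00 against 6.50, exact permutation p = 1.00).

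**Figure D1:**
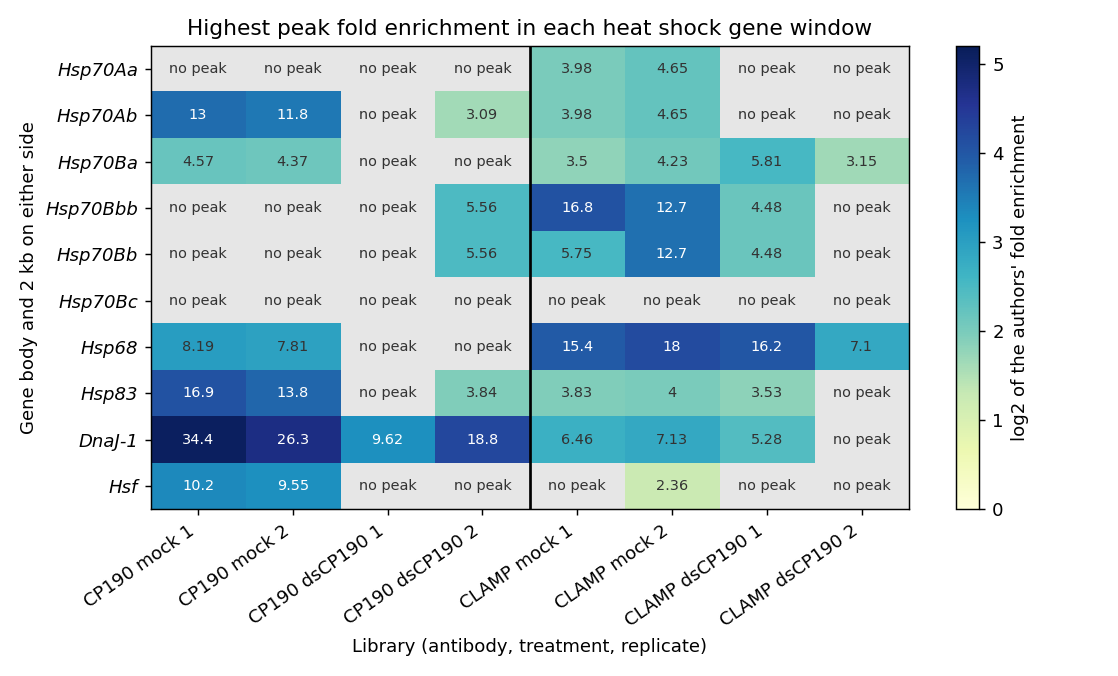
Highest fold enrichment of any peak in the window of each gene (rows) in each library (columns), with the colour on a log2 scale and the authors' fold printed in each cell; grey cells had no peak. DnaJ-1 has the highest CP190 values, 34.4 and 26.3 in the mock libraries, Hsp68 has CLAMP in all 4 CLAMP libraries, and the Hsp70Bc row is empty.

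Among the single-copy chaperone genes, the strongest CP190 peak lay between DnaJ-1 (chr3L:5750029-5752189) and sif, a gene for a guanine nucleotide exchange factor. The region spanned chr3L:5749184-5750346 on dm6. Its mean mock summit lay 211 bp beyond the low-coordinate end of DnaJ-1. The mock libraries had fold enrichments of 34.4 and 26.3, against 9.62 in replicate 1 and 18.8 in replicate 2 of the dsCP190 cells. The peak was called in all 4 libraries, and both dsCP190 values lay below both mock values. At the summits 406 and 479 fragments were counted in mock, with exact 95% Poisson limits of 367 to 447 and 437 to 524. In dsCP190 they were 145 and 195, with limits of 122 to 171 and 169 to 224. Fragment numbers are not scaled to depth, and the limits cover counting error only. Local backgrounds were 10.8 and 17.2 in mock and 14.2 and 9.42 in dsCP190. The peak ranked above 97.2% and 95.4% of the mock lists and above 89.0% and 94.4% of the dsCP190 lists, so it stayed among the strong peaks of each list. No test was made of fold values across libraries, since each belongs to its own list.

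A further CP190 region at DnaJ-1, chr3L:5751816-5753373, reached from inside the gene to the neighbouring Usp47, which encodes a deubiquitinase. In mock cells its summit lay 13 bp from the end of Usp47, with fold enrichments of 12.1 and 11.4. In dsCP190 replicate 1 the region held 1 smaller peak with its summit 136 bp beyond the DnaJ-1 end and a fold of 3.56. In dsCP190 replicate 2 it held a pair of peaks, 1 near DnaJ-1 with a fold of 3.41 and 1 at the Usp47 end with a fold of 4.31. The region therefore counts as kept, while the mock summit at Usp47 had its own peak only in replicate 2. CLAMP had a peak inside DnaJ-1 near the same end, with folds of 2.69 and 2.25 in mock and no peak in dsCP190 cells. A call there would have needed folds of 2.23 and 2.53 in dsCP190 replicates 1 and 2, close to the mock folds, so an equal enrichment could have been missed. CLAMP had a stronger peak about 1 kb away at Usp47, with folds of 6.46 and 7.13 in mock, 5.28 in dsCP190 replicate 1 and none in replicate 2.

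At Hsp83 (chr3L:3192969-3197059), the Hsp90 gene, 3 CP190 regions shared one pattern. The region at the gene's low-coordinate end, chr3L:3192186-3193411, had its mean mock summit 59 bp inside the gene and folds of 14.4 and 12.0 in mock cells. It had no peak in dsCP190 replicate 1 and a fold of 3.81 in replicate 2. The region between CG14966 and CG32276, 599 bp beyond the other end of Hsp83, had mock folds of 16.9 and 13.8, no peak in dsCP190 replicate 1 and 3.84 in replicate 2. The region at gry had 11.8 and 10.1, no peak, and 3.13. In all 3 regions the replicate 2 value was under both mock values. At the Hsp83 end the least fold for a call in dsCP190 replicate 1 was about 2.04. It was estimated from the mock background, the depth ratio and the lowest −log10 p in the list. CLAMP was called at the same Hsp83 end, though its mean mock summit was nearer to CG14965 (189 bp) than to Hsp83 (289 bp). CLAMP had folds of 3.83 and 4.00 in mock, 3.53 in dsCP190 replicate 1 and no peak in replicate 2. Its summits lay 350 and 348 bp from those of CP190, outside the gene where the CP190 summits were inside.

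Hsp68 (chr3R:24055080-24057310) had the strongest CLAMP peak of all members with an ordinary local background, and it was the strongest in the dsCP190 libraries too. The region chr3R:24057064-24057761 lay at the high-coordinate end of the gene, with its mean mock summit 102 bp beyond it. The mock libraries had fold enrichments of 15.4 and 18.0, dsCP190 replicate 1 had 16.2 and replicate 2 had 7.10. The replicate 1 value lay between the mock values and the replicate 2 value was under both, so the groups overlapped. The summits held 372 and 348 fragments in mock and 170 and 82 in dsCP190, on local backgrounds of 23.2, 18.4, 9.56 and 10.7. The peak exceeded 95.8% and 96.8% of the mock lists, 93.2% of the list of dsCP190 replicate 1 and 74.0% of that of replicate 2.

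CP190 at the same Hsp68 end was weak. It had folds of 2.23 and 3.07 in mock, above 0.795% and 9.97% of the lists, and no peak in dsCP190 cells. There a call would have needed folds of 1.98 and 2.01, close to the lower mock fold. The CP190 summits in mock lay 51 and 14 bp from those of CLAMP in replicates 1 and 2. A stronger CP190 region in the Hsp68 window, chr3R:24057899-24058566, had its summit 7 bp from the end of SMC1, which encodes a cohesin subunit. Its folds were 8.19 and 7.81 in mock, and it was called in neither dsCP190 library. The estimated least folds for a call there were 2.11 and 2.16. Another region, at CG6000 on the other side, had folds of 2.35 and 2.45 in mock and was not called in dsCP190 cells. A call there would have needed folds of 2.03 and 2.05, so a fold a little under that of mock cells would have been missed.

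At Hsf (chr2R:18130303-18134634), the gene of the heat shock factor, 3 CP190 regions on chromosome arm 2R were present in mock replicates 1 and 2 and absent from the peak lists of dsCP190 cells. The region at the high-coordinate end, chr2R:18134354-18134944, had its mean summit 4 bp from that end, with folds of 3.82 and 4.07. The region at Pcl, a Polycomb group gene, had 5.26 and 4.42, and that at Dlip3 had 10.2 and 9.55. In the dsCP190 libraries, the estimated least folds for a call at these 3 places were between 2.05 and 2.17. CLAMP was called near Hsf in mock replicate 2 only, at Dlip3, with a fold of 2.36 and a summit 23 bp from that of CP190.

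**Figure D2:**
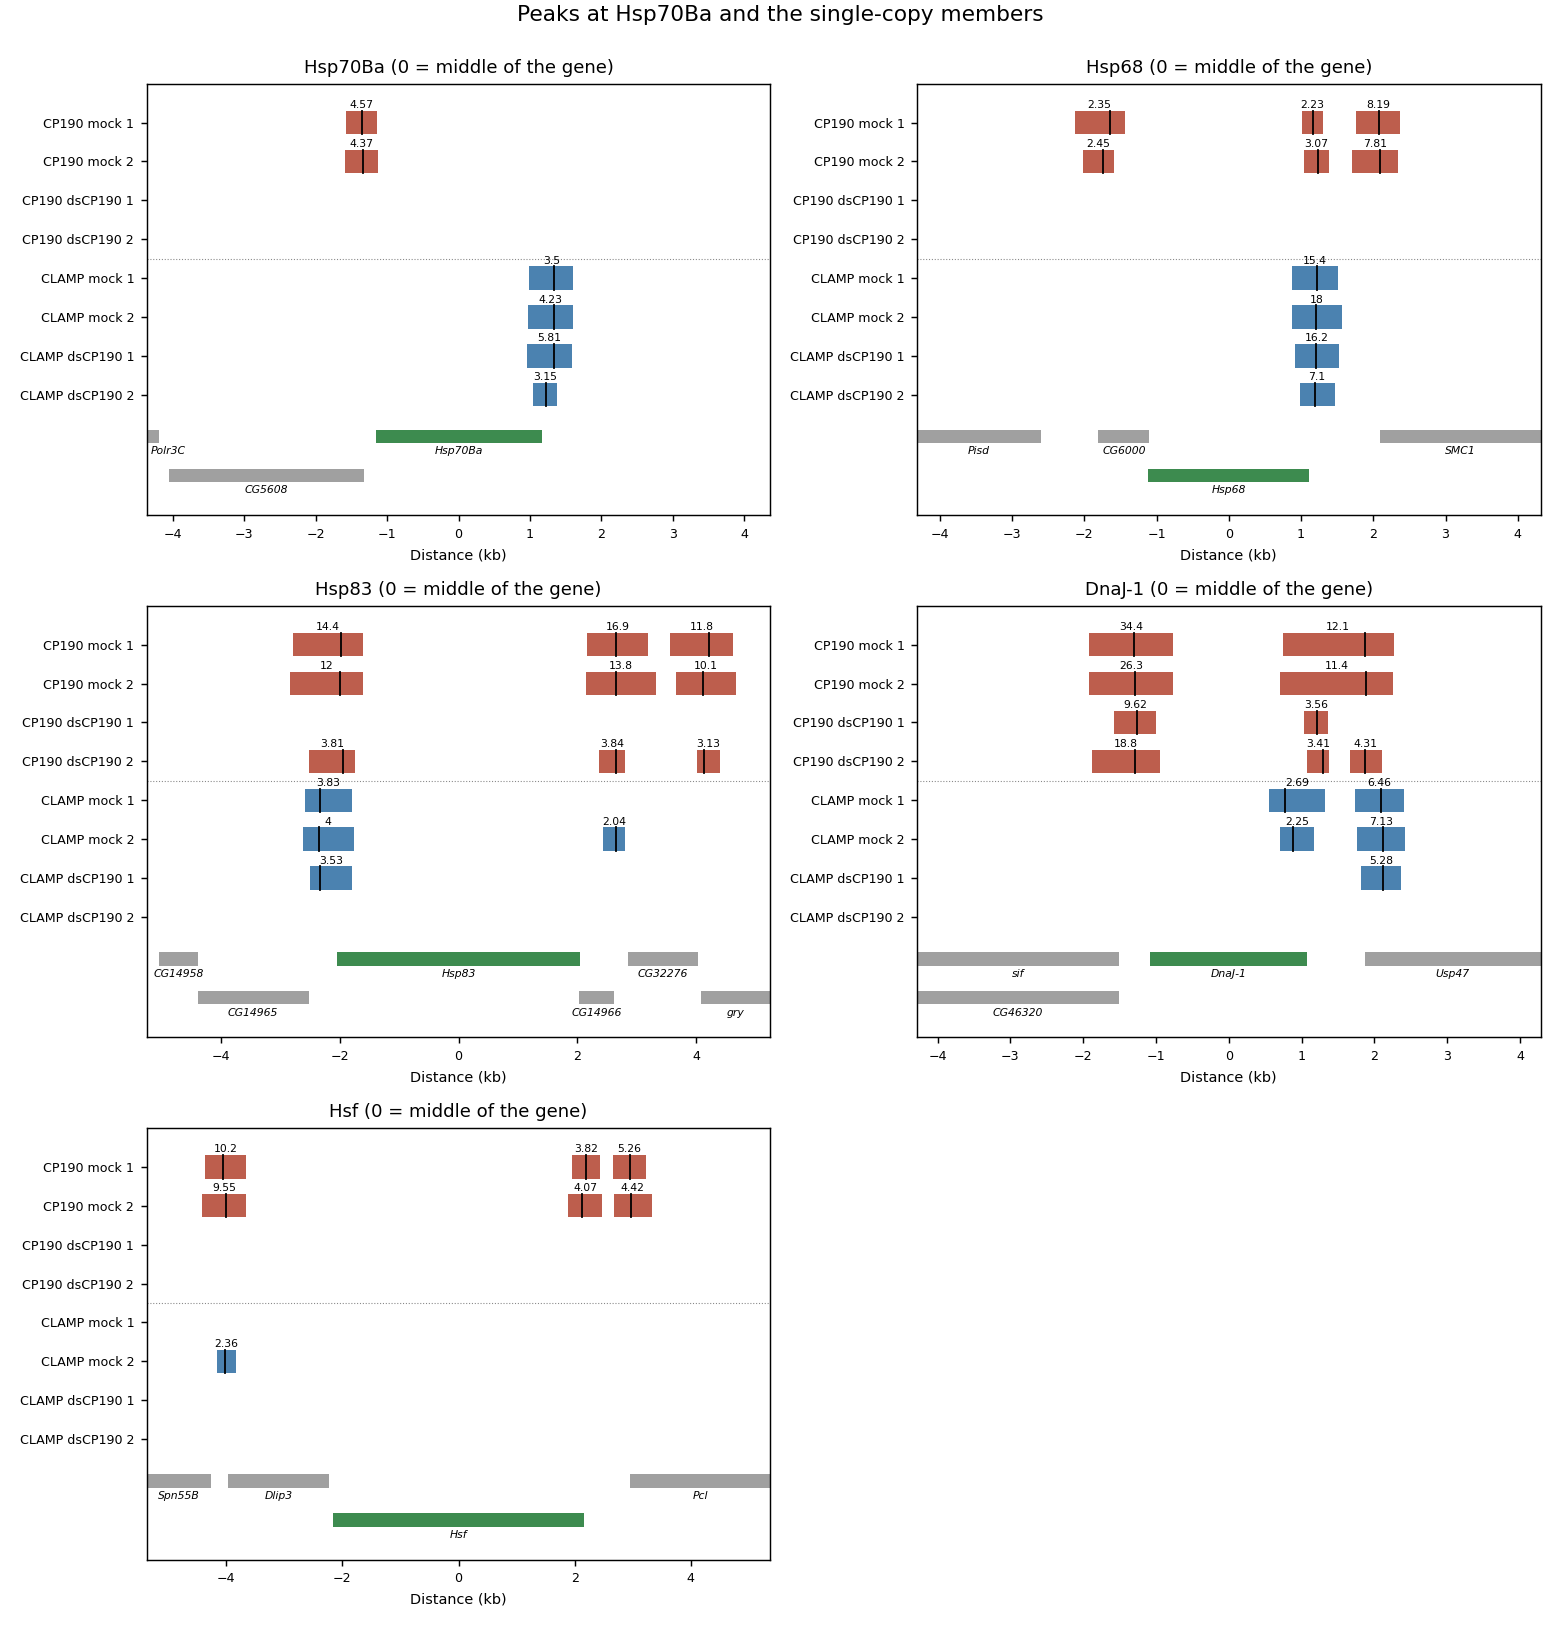
Peaks in each library (rows, CP190 in red and CLAMP in blue) around Hsp70Ba, Hsp68, Hsp83, DnaJ-1 and Hsf, plotted by distance from the middle of the gene in kb; a black line marks the summit, the number above a peak is the authors' fold enrichment, members are green and other protein-coding genes grey. CP190 peaks sit mostly at the ends of neighbouring genes, and the CLAMP peaks of Hsp68 and Hsp70Ba sit just beyond one end of the gene in all 4 CLAMP libraries.

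The 6 Hsp70 copies are near-identical, so reads from one can be placed on another or discarded. Both their peaks and the absence of a peak are therefore uncertain. How repeated reads were handled is not given in the sources used here. At the peaks between Hsp70Aa and Hsp70Ab, beyond the low-coordinate end of Hsp70Bbb and inside Hsp70Bb, the local background was between 0.0476 and 0.333 times the median of its list. At the CLAMP peaks next to Hsp70Ba it was higher, between 1.73 and 1.86 times the median. At the CP190 peaks there it was 0.810 and 0.929 times, and at the peak beyond Hsp70Ab near aurA at least 1.12 times. A fold enrichment on a low background rests on few fragments, and the part of read placement in these peaks was not tested.

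The 87A locus holds Hsp70Aa (chr3R:11954163-11956544) and Hsp70Ab (chr3R:11958535-11960909). CLAMP was called there in mock cells only, between the genes and on either side of the pair. On the aurA side it was called in mock replicate 1 only. CP190 was called on either side of the pair but not between the genes. A CLAMP region at chr3R:11957714-11958073, in the interval between Hsp70Aa and Hsp70Ab, had folds of 3.98 and 3.68 in mock, on 28 and 20 fragments. Mock replicate 2 had another peak in this interval, 460 bp from Hsp70Aa, with a fold of 4.65. No CLAMP peak was called there in dsCP190 cells, and with backgrounds estimated at 2.23 and 2.14 fragments a call would have needed folds of 3.10 and 3.50, so a fold a little under that of mock cells would have been missed. No CP190 peak was called in the bodies of Hsp70Aa and Hsp70Ab or in the interval between them in any library. No detection limit was estimated for CP190 there. The CLAMP background in the interval was 0.275 to 0.310 times its list median. Reads of these copies may have been discarded, so the missing call does not show an absence of CP190.

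The CP190 region beyond Hsp70Ab, chr3R:11962522-11963452, lay in the interval between CG3281 and aurA, a mitotic kinase gene, and so in the interval known to hold scs'. Its nearest edge was 1613 bp from Hsp70Ab, just inside the 2 kb limit, and its mean mock summit was 52 bp from the end of aurA. Folds were 13.0 and 11.8 in mock, with no peak in dsCP190 replicate 1 and 3.09 in replicate 2. The fragments at the summit, not scaled to depth, numbered 170 and 203 in mock and 32 in dsCP190 replicate 2. They lay on local backgrounds of 12.1, 16.3 and 9.68. The estimated least fold for a call in dsCP190 replicate 1 was 2.09. On the other side of the pair, outside the limit and chosen after its values were seen, a CP190 region between Cad87A and CG31211 came to within 4183 bp of Hsp70Aa. It had folds of 11 and 7.93 in mock, no peak in dsCP190 replicate 1 and 2.42 in replicate 2. CLAMP was called at the same place with mock folds of 2.83 and 2.19, and on the aurA side, near CG12213, in mock replicate 1 with a fold of 3.05. The CP190 regions on either side of the pair had the same calls in the 4 CP190 libraries. These calls were not particular to them. A further CP190 region near CG12213, also outside the limit, had the same calls, with higher folds in each library that called it. So did the CP190 regions at Hsp83. Of all CP190 regions called in both mock libraries, 19.0% were called in 1 dsCP190 library.

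**Figure D3:**
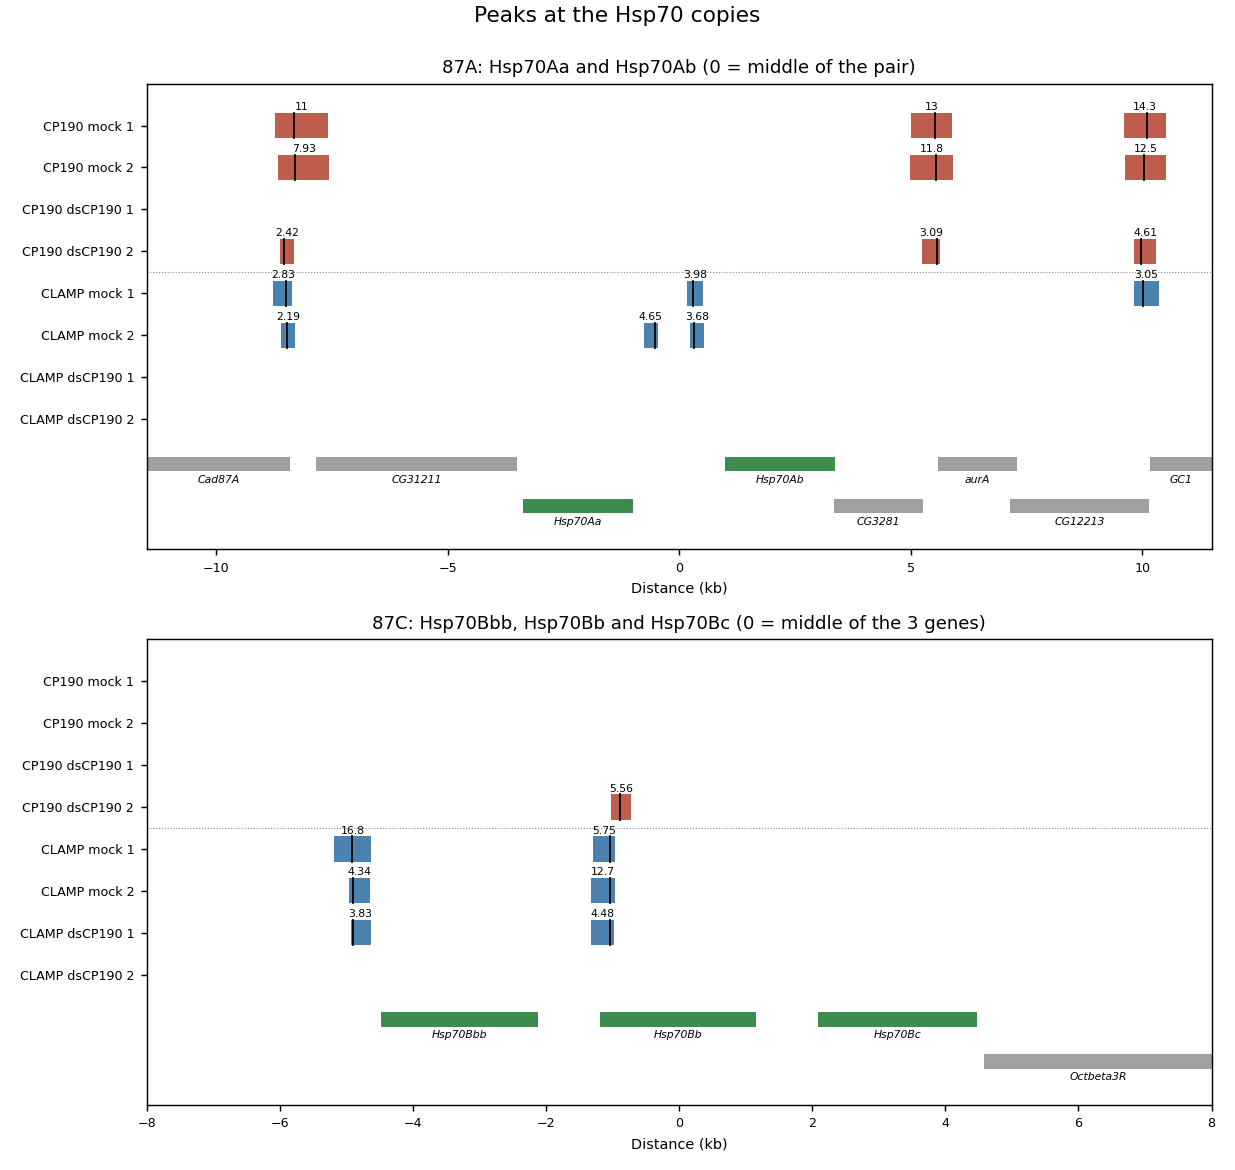
Peaks in each library (rows, CP190 in red and CLAMP in blue) at the Hsp70 pair of 87A and at Hsp70Bbb, Hsp70Bb and Hsp70Bc of 87C, by distance in kb from the middle of the genes; a black line marks the summit and the number above a peak is the authors' fold enrichment. CP190 peaks were called on either side of the 87A pair and none between or in the genes, and no peak was called at Hsp70Bc. A missing call at these near-identical copies is uncertain.

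At 87C the called peaks differed between the copies, and the part of read placement in these differences was not tested. Hsp70Ba (chr3R:12465453-12467776) lies apart from Hsp70Bbb (chr3R:12502510-12504856), Hsp70Bb (chr3R:12505793-12508139) and Hsp70Bc (chr3R:12509076-12511461). CLAMP at its high-coordinate end, chr3R:12467579-12468222, was called in all 4 libraries, with mock folds of 3.50 and 4.23. The dsCP190 folds were 5.81 in replicate 1 and 3.15 in replicate 2. The dsCP190 values lay on either side of the mock values. Summit fragments, not scaled to depth, were 134 and 127 in mock and 85 and 49 in dsCP190, on local backgrounds of 37.6, 29.3, 13.8 and 14.9. CP190 was called 183 bp beyond the other end of Hsp70Ba, 28 bp from the end of CG5608. Its folds there were 4.57 and 4.37 in mock, with no peak in dsCP190 cells. The estimated least folds for a call in those cells were 2.22 and 2.19. The CLAMP and CP190 summits were 2684 and 2680 bp apart.

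Hsp70Bbb and Hsp70Bb had CLAMP regions on very low backgrounds. The region beyond Hsp70Bbb, chr3R:12501792-12502353, had folds of 16.8 and 4.34 in the mock replicates. These rested on 32 and 24 fragments over backgrounds of 0.965 and 4.76. The fragments were thus closer to each other than the folds. The region inside the end of Hsp70Bb, chr3R:12505658-12506026, had folds of 5.75 and 12.7, with 38 and 29 fragments over backgrounds of 5.79 and 1.36, so that replicate 1 had the higher fold at one copy and replicate 2 at the other. Both regions were called in dsCP190 replicate 1, with folds of 3.83 and 4.48 and 13 fragments each. Neither was called in replicate 2, where an estimated 8 fragments would have been needed at each. These fragment numbers are not scaled to depth, which was lower in the dsCP190 libraries. At Hsp70Bbb the least fold for a call in replicate 2 was close to the lower mock fold and above the fold of dsCP190 replicate 1. An enrichment a little under the lower mock fold would have been missed there. At Hsp70Bb the least fold was under both mock folds. A CP190 peak in Hsp70Bb was called in dsCP190 replicate 2 only. Its fold of 5.56 rested on 7 fragments over a background of 0.439 fragments, and 0.0319% of that list's peaks had a lower background.

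**Figure D4:**
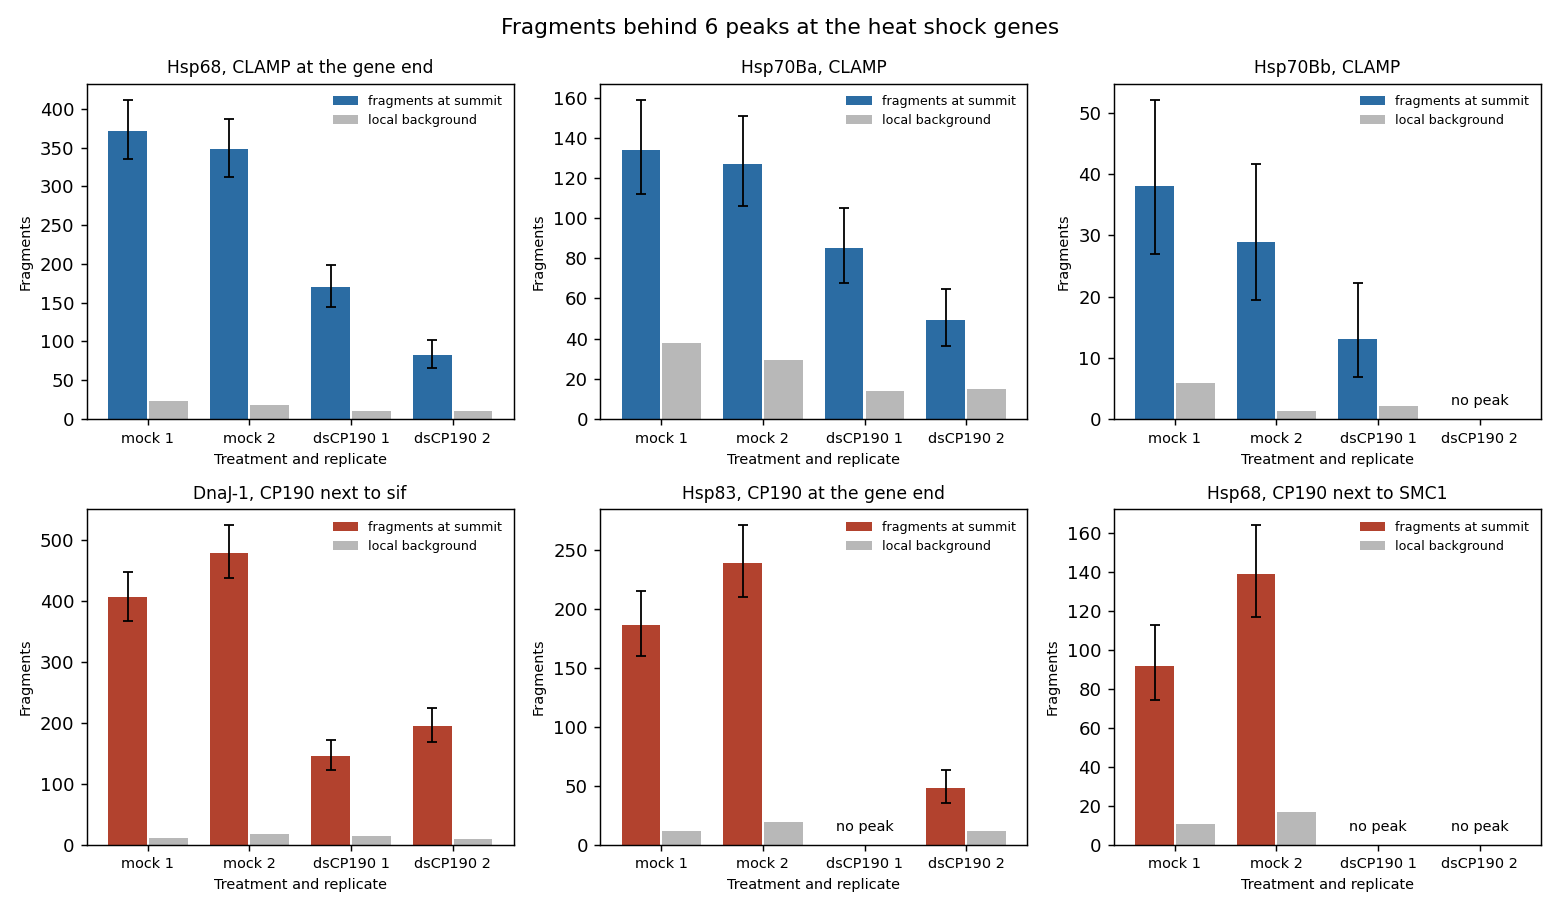
Fragments at the peak summit (coloured bars, with exact 95% Poisson limits that cover counting error only) and the local background (grey bars) for 6 peaks in the 4 libraries of their antibody; fragment numbers are not scaled to depth. CLAMP at Hsp68 and Hsp70Ba and CP190 at DnaJ-1 have peaks in all 4 libraries, and CP190 next to SMC1 has none after dsCP190.

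CP190 regions in these windows mostly lay at other genes. Of 14 CP190 regions in the windows, 13 were called in both mock libraries, and the summit was nearest to an end of a gene outside the list in 9 of these 13: SMC1, CG6000, CG14966, gry, Usp47, Dlip3, Pcl, aurA and CG5608. The 4 nearest to a member lay at Hsp68, Hsp83, DnaJ-1 and Hsf. The DnaJ-1 assignment is marginal, since the summit was almost midway between DnaJ-1 and sif. Of 11 CLAMP regions, 8 were called in both mock libraries, and 6 of these were nearest to a member, the other 2 being those at CG14965 beside Hsp83 and at Usp47 beside DnaJ-1. With calls limited to peaks nearest to the member itself, CP190 was called in both mock libraries at 3 genes in place of 6 and CLAMP at 6 in place of 8. The shares of all genes and regions under these rules are not given here. These counts therefore describe the member windows only and do not set them apart from other genes.

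After dsRNA against CP190, CP190 was called in fewer members in both libraries. Of the 6 genes called in both mock libraries, Hsp70Ba, Hsp68 and Hsf were called in neither dsCP190 library, Hsp70Ab and Hsp83 in replicate 2 only, and DnaJ-1 in both. The 3 lost of 6 compare with 43.9% over all genes called in both mock libraries, the 2 called in 1 dsCP190 library with 23.8% and the 1 kept with 32.3%, so the shares are near the background for so few genes. By region, 7 of 13 were lost, 4 were called in 1 dsCP190 library and 2 were kept, against 58.4%, 19.0% and 22.6% of all reproducible CP190 regions. Per library, the dsCP190 lists called 21.6% and 33.5% of all genes. Calls per library were 6 and 6 of 10 in mock and 1 and 5 in dsCP190, a difference of 3.00 (6.00 ± 0 against 3.00 ± 2.83, SD, n = 2 each, two-sided exact permutation p = 0.333, the smallest possible). The dsCP190 replicates differed by more than the groups' means: without dsCP190 replicate 2 the difference was 5.00 and 5 genes were lost, and without replicate 1 it was 1.00 and 3 genes were kept. Among the 5 calls of dsCP190 replicate 2, those of Hsp70Bbb and Hsp70Bb came from 1 shared peak on 7 fragments, which neither mock library had. With the Hsp70 copies counted as 3 loci, the difference was 3.50 (6.00 against 2.50).

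CLAMP was also called at fewer members in dsCP190 cells. Of the 8 genes called in both mock libraries, Hsp70Ba and Hsp68 were called in both dsCP190 libraries, Hsp70Bbb, Hsp70Bb, Hsp83 and DnaJ-1 in replicate 1 only, and Hsp70Aa and Hsp70Ab in neither. The 2 kept of 8 compare with 26.6% over all genes called in both mock libraries, the 4 with 40.6% and the 2 lost with 32.9%. By region, 2 of 8 were lost, 4 were called in 1 dsCP190 library and 2 were kept, against 40.0%, 38.1% and 21.9% of all CLAMP regions called in both mock libraries. Per library, the CLAMP dsCP190 lists called 17.2% and 6.62% of all genes. The members called numbered 8 and 9 in mock and 6 and 2 in dsCP190, a difference of 4.50 (8.50 ± 0.707 against 4.00 ± 2.83, SD, n = 2 each, two-sided exact permutation p = 0.333). Without dsCP190 replicate 1 it was 6.50 and 6 genes were lost, and without replicate 2 it was 2.50 and 6 genes were kept. The shortest CLAMP list held 901 peaks, and with every CLAMP list kept to that many peaks by −log10 p the difference was -1.0. Hsp68 was then the 1 member still called in both mock libraries, and the share of all genes under that limit is not given here.

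In dsCP190 cells CP190 and CLAMP were called at 1 and 5 and at 6 and 2 members in replicates 1 and 2, a difference of -1.0 (3.00 ± 2.83 against 4.00 ± 2.83, SD, n = 2 each, two-sided exact permutation p = 0.667). The replicate with more CP190 calls was the one with fewer CLAMP calls. Its CP190 calls at Hsp70Bbb and Hsp70Bb came from 1 shared peak on 7 fragments. No member had both proteins in all 4 dsCP190 libraries, against 3.29% of all genes.

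The pattern of calls over the 8 libraries was common for most members. The 7 libraries of DnaJ-1 were shared by 619 other protein-coding genes, and of these SppL, CG15743 and Serinc had the nearest fold enrichments, with Euclidean distances of 0.534, 0.540 and 0.570 on the log2 scale over those libraries. The calls of Hsp83 were shared by 321 genes, with dpr14 nearest at 0.405, and those of Hsp70Ab by 277, with sprt nearest at 0.306. Hsp68 and Hsp70Ba had the same calls, as did 133 other genes, with E23 nearest to Hsp68 at 0.482 and Cdep nearest to Hsp70Ba at 1.39. Hsf shared its calls with 167 genes, with eEFSec nearest at 0.130, and Hsp70Aa with 82, with CG31954 and tim nearest at 0.158. Hsp70Bbb and Hsp70Bb shared theirs with 1 gene, kek1.

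Other heat shock, chaperone and promoter factor genes were read in the same way. Of 31 listed genes, 29 matched the annotation. CP190 was called in both mock libraries at 21 of the 29 (72.4%, against 61.5% of all genes) and CLAMP at 16 (55.2%, against 24.8%). For CP190, 9 of the 21 were lost, 7 were called in 1 dsCP190 library and 5 were kept, against 43.9%, 23.8% and 32.3% over all genes called in both mock libraries. The 5 kept were Cdc37, p23, DnaJ-60, mrj and lncRNA:Hsromega. At p23, a co-chaperone of Hsp90, the highest CP190 folds were 30.5 and 24.3 in mock and 14.6 and 31.9 in dsCP190, so the groups overlapped. At lncRNA:Hsromega, the heat shock noncoding RNA gene, they were 23.1 and 19.8 in mock and 4.62 and 6.82 in dsCP190, and the groups did not overlap. For mrj and DnaJ-60, which encode Hsp40 proteins, the highest CP190 folds in mock were 16.4 and 13.9 at mrj and 13.3 and 15.8 at DnaJ-60. In dsCP190 cells they were 2.33 and 6.13 at mrj and 4.57 and 5.66 at DnaJ-60, under both mock values in each case. The lost CP190 genes were Hsp22, CG4456 (listed as Hsp67Bb) and Hsp67Bc, which share 1 peak, the Hsp70 cognates Hsc70-3, Hsc70-4 and Hsc70-5, Hsp110, STUB1 and dwg. Those called in 1 dsCP190 library were Hsp60A, Trap1, Gp93, Droj2, DnaJ-H, Trl and BEAF-32.

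For CLAMP, 2 of the 16 were lost, 8 were called in 1 dsCP190 library and 6 were kept, against 32.9%, 40.6% and 26.6% over all genes called in both mock libraries. The 6 kept were Hsp23 and Hsp27, which share a peak, Cdc37, mrj, lncRNA:Hsromega and Trl, which encodes GAGA factor. Folds were 14.8 and 16.9 in mock and 8.70 and 4.56 in dsCP190 at the peak of the small heat shock genes Hsp23 and Hsp27. At Trl they were 14.9 and 17.0 in mock and 15.3 and 8.98 in dsCP190. At Cdc37, a kinase-specific co-chaperone of Hsp90, they were 11.8 and 14.2 in mock and 10.7 and 4.68 in dsCP190. In each of these genes dsCP190 replicate 2 had the lowest of the 4 values, as at Hsp68. Droj2 and Hsc70-3 were lost, and Hsp26, Hsp67Ba, Hsc70-4, Hsp110, Trap1, p23, DnaJ-H and BEAF-32 were called in 1 dsCP190 library.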

How the data were processed

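Per the labels, CP190 and CLAMP were precipitated from mock and dsCP190 cells, with 2 libraries per group and 4 input libraries that were not used here. Build dm6 and the tools MACS2 2.1.1.20160309, Bowtie2 2.3.4.1, deepTools 3.0.2, Picard 2.18.9 and cutadapt 1.16 stand in the submitters' processing notes, without roles. Which control library and which calling settings were used is not given in the sources used here. The authors deposited 1 narrowPeak list per library, not pooled. The deposited score of a peak is 10 times its −log10 q without decimals, as its values show. The deposited −log10 p and −log10 q are the authors' own for each peak. The fold enrichment deposited by the authors is the summit pileup over the local background.

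Gene positions came from the RefSeq dm6 table, which gives no strand, so gene ends are named by coordinate. Regions joined the overlapping peaks of an antibody's 4 libraries. Lost means called in both mock libraries and in no dsCP190 library, and kept means called in all 4, which says nothing of enrichment. Fragments and background were solved from fold and −log10 p under a Poisson model with 1 added to each, which gave whole fragments to within 0.001 of −log10 p for all but 1 peak of the 8 lists. The solution was tested first on simulated data. Their 95% limits cover counting error only. Members called per library were compared by 4 exact permutation tests in Python 3.11.15 with scipy 1.17.1. The members and gene lists were chosen with earlier results of these data known. Named genes are the members, the gene end nearest each member peak, listed chaperone genes called in both mock libraries, and up to 3 genes with the same calls and closest folds per member. A planned motif count in member promoters was not run, because promoter sequences were not used here. Alternatives changed the gene window, the −log10 q limit, the list length, the peak position counted, the treatment of the Hsp70 copies and the libraries included.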

Additional observations from a re-analysis of the deposited data

How the results depend on the processing

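Of 168 recomputed values, 6 turned and 26 others moved, which for counts means by over 1.5 times. The other 136 stayed on their side, but differences among them were judged by direction alone and changed in size. The CP190 difference ranged from 1.0 (shortest list, or without dsCP190 replicate 1) to 5.0 (without dsCP190 replicate 2). Where it kept its direction, the CLAMP difference ranged from 1.5 (without the Hsp70 copies) to 6.5 (without dsCP190 replicate 1). With each list kept to the length of its antibody's shortest (2047 and 901 peaks), CLAMP was called in both mock libraries at 1 member, with 1 kept and 0 lost; CP190 at 2, with 0 lost; both proteins at 0. The CLAMP difference was then -1.0 (turned) and mock CP190 minus CLAMP 1.5 (turned). With the gene body alone, CLAMP was called at 5 and lost at 1, and the mock difference was 0. With 5000 bp on either side, CP190 was kept at 2 and lost at 1, and the dsCP190 difference was 1.00 (turned). With a −log10 q of at least 10, CLAMP was kept at 1 and the mock difference was 0. Without the Hsp70 copies, CLAMP was called at 3, kept at 1 and lost at 0, both proteins at 3, and the mock difference was 0.500 (turned). With alternatives added after the data were seen, CLAMP was lost at 1 and the mock difference was -0.500 (6.00 against 6.50) with the copies as 3 loci, and with summits nearest to the member itself CP190 was called at 3 and kept at 0, and both proteins at 1. The shares of all genes under these changed rules, or with 1 library left out, are not given here, so these counts have no background beside them. The cause was not tested.

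Leaving out 1 library at a time, CLAMP members kept ranged from 2 to 6 (6 without dsCP190 replicate 2) and lost from 2 to 6 (6 without dsCP190 replicate 1). CP190 members kept ranged from 1 to 3 (3 without dsCP190 replicate 1) and lost from 3 to 5 (5 without dsCP190 replicate 2). The dsCP190 difference ranged from -3.0 to 1.00 (1.00 without replicate 1 of either antibody), and members with both proteins in dsCP190 cells from 0 to 1 (1 without CLAMP dsCP190 replicate 2). The labels do not say that replicate numbers pair libraries. With the number as a replicate block, the differences were 3.00 for CP190 (exact permutation p = 0.500, the smallest possible), 4.50 for CLAMP (p = 0.500, exact), -2.50 in mock cells (p = 0.500, exact) and -1.0 in dsCP190 cells (p = 1.00, exact), which changed no call. The part of depth in missing calls was not tested beyond the detection limits given.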

Other observations

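Beyond the 2 kb windows but within 10 kb of the members, some CP190 regions at neighbouring genes had mock folds that exceeded those at several of the members themselves. The examples were chosen after their values were seen. Beside Hsf, a CP190 region at stau, which encodes an RNA-binding protein, had mock folds of 12.8 and 15.3, with 2.22 in dsCP190 replicate 1 and 6.02 in replicate 2. Beside Hsp68, a region at Pisd had 10.1 and 12.0 in mock, no peak in dsCP190 replicate 1 and 2.97 in replicate 2. CLAMP beside Hsp68, at Rox8, had 10.2 and 10.9 in mock, 7.19 in dsCP190 replicate 1 and no peak in replicate 2.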
